A study of Mus musculus with 2 samples.

Results

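Plasmacytoid dendritic cells made up 159 of the 22810 barcodes kept from a mouse skull defect at day 14, 68 of 12279 in one hydrogel library and 91 of 10531 in the other. A barcode, which stands for the content of 1 droplet, was kept if 200 or more genes were detected in it and no more than 20% of its UMIs were mitochondrial. A UMI (unique molecular identifier) stands for a captured RNA molecule. Members were the kept barcodes with 3 or more UMIs of Siglech and 3 or more of Bst2. Both libraries came from wild-type C57BL/6 mice with a 2 mm defect in the parietal bone, a flat bone of the skull vault. The defect was filled with a hydrogel called CGG in one group and CGG-Cit in the other, and neither name is spelled out in the labels. After 14 days the trimmed tissue was digested in 0.3% collagenase, passed through a 70 µm strainer and run as droplet-based 3′ RNA libraries on a 10x Chromium instrument. There was 1 library per hydrogel, and how many mice each was made from was not stated in the material used here. No difference between the libraries therefore has a replicate check, no test was made, and a difference between hydrogels cannot be told apart from a difference between 2 libraries. The intervals below are 95% intervals for counting error only.

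Plasmacytoid dendritic cells are round, secretory immune cells of bone marrow, blood and lymphoid organs that sense viral RNA and DNA in endosomes and can release large amounts of type I interferon. They are made in bone marrow from dendritic cell and lymphoid progenitors under the growth factor receptor Flt3 and the transcription factor Tcf4 (E2-2), which binds E-box sequences, and they share part of the B cell program. Late in that development they stop dividing, acquire the chemokine receptor Ccr9 and present antigen on MHC class II molecules.

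The 2 genes of the rule set the members' levels and are given as description. Siglech, a sialic acid-binding receptor used to mark these cells in the mouse, had a median of 9 UMIs per member in CGG (range 3 to 40) and 11 in CGG-Cit (3 to 44). Bst2, the antigen of the PDCA-1 antibody that interferon also induces in other cells, had medians of 28 (3 to 65) and 34 (3 to 82). Some barcodes lay near the Siglech limit. With exactly 3 Siglech UMIs there were 7 members in CGG and 5 in CGG-Cit, with 4 there were 9 and 5, and with 2 Siglech UMIs and at least 3 of Bst2 there were 10 and 9 barcodes outside. Only 1 and 2 kept barcodes had at least 3 Siglech UMIs and fewer than 3 of Bst2. Limits of 2 UMIs of both genes gave 82 and 101 members, and limits of 5 gave 52 and 81.

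**Figure D1:**
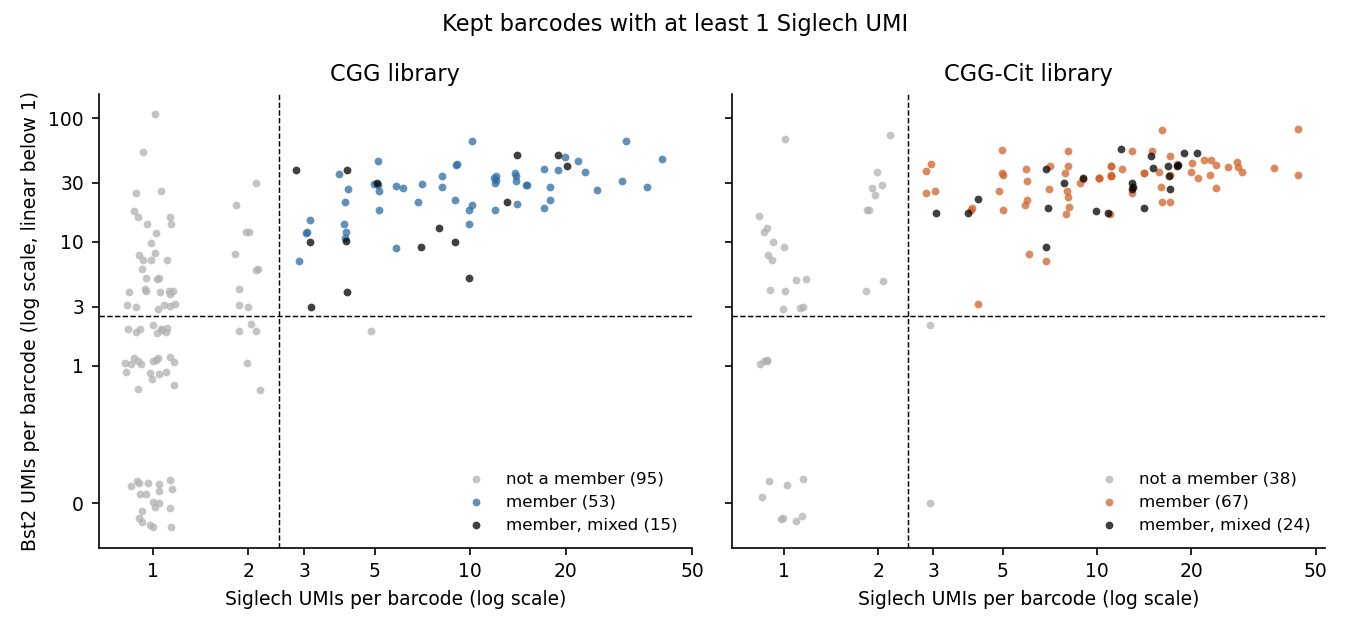
Kept barcodes with at least 1 Siglech UMI in each library, by Siglech UMIs (horizontal, log scale) and Bst2 UMIs (vertical, log scale, linear below 1), with points shifted slightly at random so that they do not cover each other. The dashed lines mark the limits of the rule; the 68 CGG and 91 CGG-Cit members lie above both, and black points are the 15 and 24 members that also held much RNA of another lineage.

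The label was checked on 14 other markers of plasmacytoid dendritic cells that the rule did not use. The median member held a UMI of 9 of the 14 in CGG and of 10 in CGG-Cit. At least 7 were present in 51 of 68 members (75%) and in 79 of 91 (86.8%). Among the other kept barcodes the share was 0.0819% (10 of 12211) and 0.163% (17 of 10440), with medians of 1 and 2 markers. The B lineage, the nearest of the comparison classes, had a median of 3 in both libraries. The marker set thus went with the label for most members, whereas 8 CGG and 6 CGG-Cit members held 4 markers or fewer.

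Ccr9, the receptor for the gut and thymus chemokine Ccl25 and a mark of mature cells, was seen in 52 of 68 CGG members (76.5%, 64.6 to 85.9) and in 59 of 91 CGG-Cit members (64.8%, 54.1 to 74.6). With each member thinned to 2000 UMIs, which left out 1 shallower member per library, the shares were 47.8% and 40.0%. Monocytes, which should lack Ccr9, had it in 2 of 494 cells (0.405%) and 2 of 565 (0.354%) at median depths of 9104 and 10664 UMIs, against 7449.5 and 8962 in members. The share in members was thus far above that in a cell type without the gene. Ly6d, a surface protein shared with lymphoid progenitors, was seen in 48 members (70.6%) in CGG and 88 (96.7%) in CGG-Cit, or 61.2% and 90.0% after thinning, against 5.06% and 11% of monocytes. Tlr9, the DNA sensor for which these cells are known, had 0 UMIs in CGG members, which allows up to 4.39 CPM, and 3 UMIs (2.37 CPM) in CGG-Cit members, so its level could not be read at this depth.

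Some members carried RNA of a second lineage. A member was called mixed where 1 of 13 lists of other lineages had at least 20 UMIs, at least 20 per 10000 UMIs and at least 5 times the median member. This held for 15 CGG members (22.1%) and 24 CGG-Cit members (26.4%). The second lineages differed between the libraries. In CGG they were monocytes and macrophages in 6, neutrophils in 5, stromal cells in 5, and myeloid progenitors and endothelial cells in 1 each. In CGG-Cit they were neutrophils in 14, the B lineage in 10, myeloid progenitors in 7, erythroid cells in 2, and monocytes and macrophages in 1. Some members met the limit for more than 1 list. Of the mixed members, 6 of 15 in CGG and 1 of 24 in CGG-Cit held 4 or fewer of the 14 markers. Of the unmixed ones, 2 of 53 and 5 of 67 did. The markers thus gave the label little backing in members with 4 or fewer, mixed or not. At least 7 of the 14 were present in 9 of 15 mixed members in CGG and 22 of 24 in CGG-Cit. Among unmixed members this held for 42 of 53 and 57 of 67.

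Mixed members were deeper, with median depths of 16067 and 16693 UMIs against 6607 and 7714 in the rest, so they weigh heavily in summed levels. Leaving them out lowered the summed neutrophil list in members from 30716 to 1486 CPM in CGG and from 45223 to 2289 CPM in CGG-Cit. The stromal list stood at 7691 CPM in CGG members and at 955 CPM without the mixed ones, against 19.0 and 19.8 CPM in CGG-Cit. All other kept barcodes held 28190 CPM of that list in CGG and 816 CPM in CGG-Cit. The part of free RNA in the members' values was not tested. Cd3e, Xcr1, Ccl22 and Ms4a2 were at 0 in all members, while other genes of their lists had UMIs there. The conventional dendritic cell list stood higher in unmixed members than in all other kept barcodes. It was at 373 against 113 CPM in CGG and at 250 against 17.5 CPM in CGG-Cit. The endothelial list was at 193 against 178 CPM and at 224 against 71.0 CPM. Values without the mixed members are given below wherever they change the picture, a choice made after seeing the data. No barcode was shared between members of the 2 libraries, although 32 kept barcodes were.

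**Figure D2:**
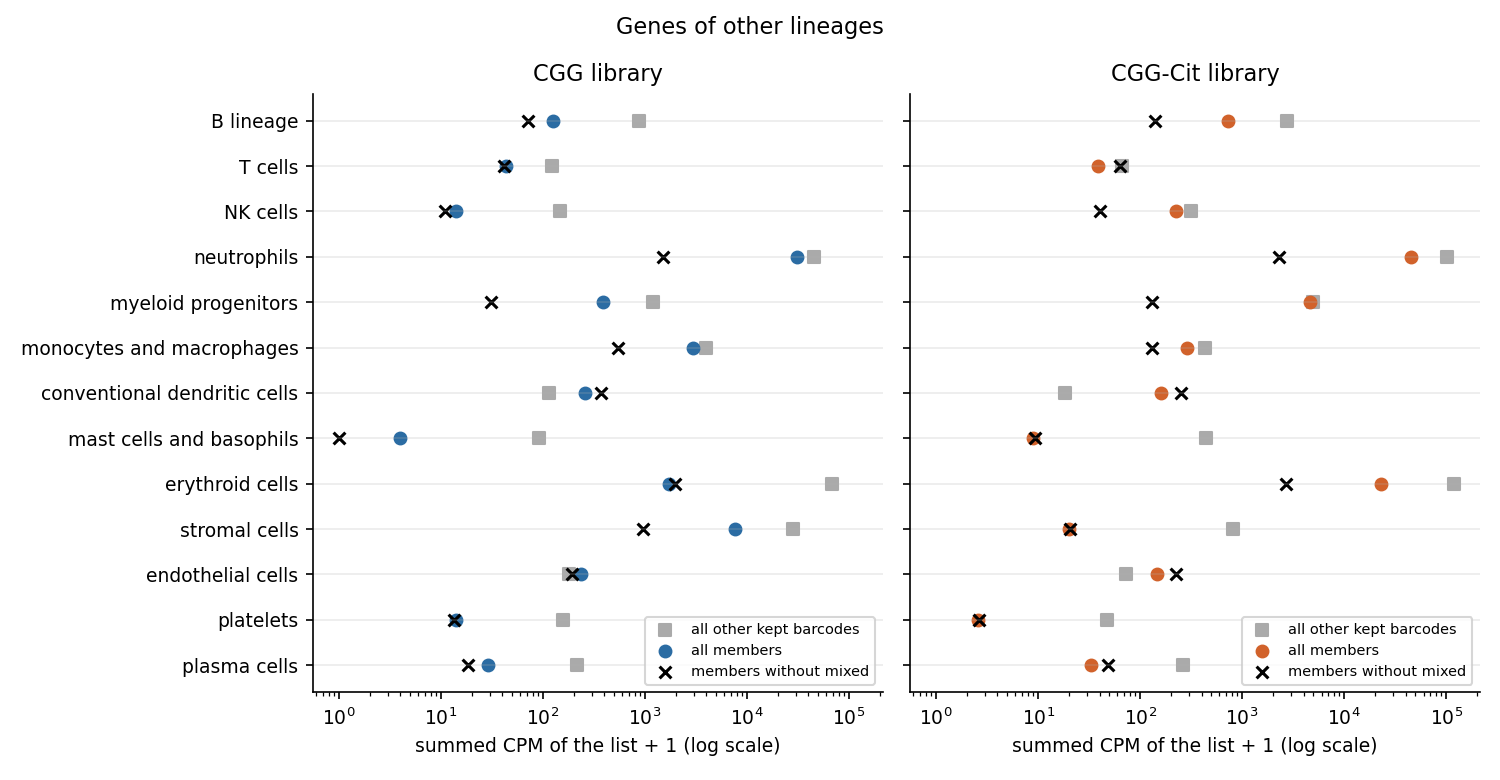
Summed CPM plus 1 (log scale) of the marker lists of 13 other lineages in each library, for all other kept barcodes (squares), all members (circles) and members without the mixed ones (crosses). Crosses lie far below the squares for neutrophils, the B lineage and stromal cells. For conventional dendritic cells they lie above the squares (373 against 113 CPM in CGG, 250 against 17.5 CPM in CGG-Cit). The same holds for endothelial cells (193 against 178 CPM in CGG, 224 against 71.0 CPM in CGG-Cit).

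The 20 genes most confined to members included known marks of the lineage, such as Siglech, Ccr9, Cox6a2, Pacsin1 and Tcf4, and genes without such a role. Genes with at least 100 CPM in members of both libraries were ranked by the lower library's level over the highest level in any of 6 comparison classes (B lineage, conventional dendritic cells, monocytes, neutrophils, T cells and stromal cells) in either library, with 5 CPM added to both. Members were chosen by their RNA, so these levels are description. Cox6a2, a muscle-type subunit of cytochrome c oxidase, stood at 727 CPM in CGG and 913 CPM in CGG-Cit against 16.9 CPM in the highest class. Ccr9 stood at 451 CPM (402 to 504) and 252 CPM (225 to 281) against 3.94 CPM. D13Ertd608e, a transcript without a named function, stood at 108 CPM in both libraries against 0.0338 CPM. Pacsin1, a membrane-bending adaptor, stood at 148 and 104 CPM against 8.69 CPM, and the activating receptor Cd300c at 151 and 135 CPM against 17.4 CPM. These genes were thus low in every comparison class.

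Others of the 20 genes were also expressed elsewhere. The inhibitory collagen receptor Lair1 stood at 364 and 267 CPM against 56.5 CPM. Runx2, better known as the master factor of bone-forming cells, stood at 733 and 540 CPM against 94.7 CPM, so that members stood above the stromal class of this bone defect in Runx2. Tcf4 stood at 1317 and 995 CPM against 313 CPM, and Irf8, the factor shared by monocytes and dendritic cells, at 1564 and 2001 CPM against 673 CPM. The remaining ones were Upb1, Tex2, Cd7, Tmem229b, Smim5, Rell1, Mvb12a, Dirc2, Bcl11a and Rpgrip1, with highest-class levels between 33.1 CPM for Smim5 and 170 CPM for Bcl11a.

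**Figure D3:**
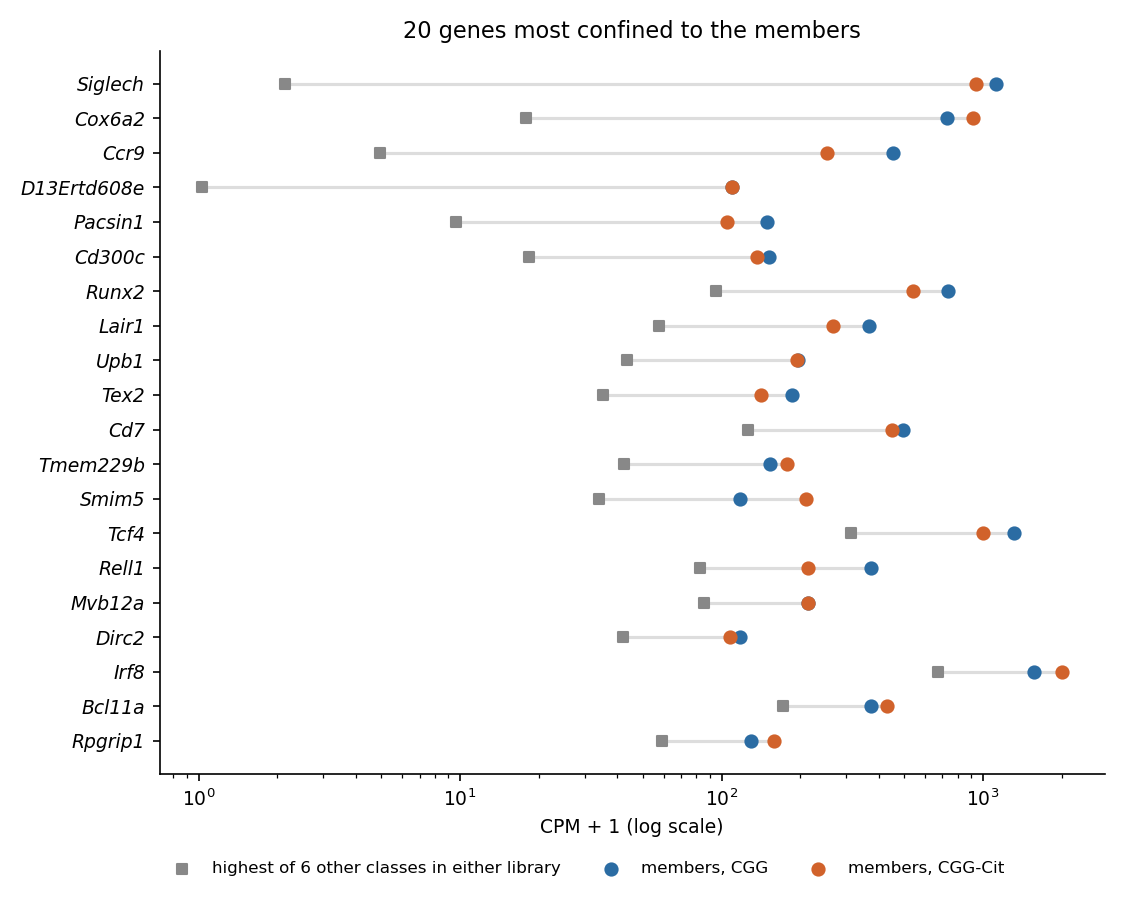
Levels (CPM plus 1, log scale) of the 20 genes most confined to the members, in CGG and CGG-Cit members (circles) and in the highest of the 6 other classes (squares). Siglech, Cox6a2, Ccr9, D13Ertd608e, Pacsin1 and Cd300c have squares below 20 CPM, whereas Tcf4 and Irf8 are also well expressed elsewhere.

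Because Tcf4 binds E-boxes, the 250 bases before the start site were searched in RefSeq promoters (GRCm38.p6) for 14 of the 20 genes. The others, Tcf4 among them, had no usable entry or lay on a chromosome left out of the search. That chromosome was kept in the counts over all promoters. The motif CANNTG, counted on both strands, was in 8 of the 14 and in 66.0% of all 27025 mouse promoters of that length. Its form CACCTG or CAGGTG was in 4 of the 14 (28.6%, namely Siglech, Ccr9, Cd300c and Tmem229b) and in 17.1% of all promoters, and CAGCTG was in 0 of the 14 and in 12.8%. An interferon-response form, GAAA, any 2 bases and GAAA, was in that of Cd300c alone (3.04% of all promoters), and GAGGAA, an ETS core with flank, was in those of Lair1 and Upb1 (23.1%). With 14 sequences these counts are description, and a match is not a bound site. Bases just after each start site were sought in transcripts of the same gene. Those of Cd300c were found in neither direction, so its start site and strand rest on the RefSeq entry alone. Those of the other genes searched were found. The 3 most confined genes with a CACCTG or CAGGTG are shown to let the E-boxes be seen in place, with every CANNTG in capitals, 5′ to 3′ on the gene's strand: Siglech at chr7:55767934-55768183 (plus strand), Ccr9 at chr9:123766961-123767210 (plus strand) and Cd300c at chr11:114960508-114960757 (minus strand).
Siglech: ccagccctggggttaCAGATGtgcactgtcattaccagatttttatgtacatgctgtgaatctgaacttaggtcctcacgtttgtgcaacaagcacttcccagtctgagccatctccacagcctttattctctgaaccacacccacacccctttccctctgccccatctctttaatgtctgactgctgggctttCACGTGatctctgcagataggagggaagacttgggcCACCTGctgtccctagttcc
Ccr9: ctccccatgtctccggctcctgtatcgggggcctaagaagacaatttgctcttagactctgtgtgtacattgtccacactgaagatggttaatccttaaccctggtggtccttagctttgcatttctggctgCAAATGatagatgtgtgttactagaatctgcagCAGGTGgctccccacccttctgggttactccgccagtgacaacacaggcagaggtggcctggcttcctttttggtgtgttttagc
Cd300c: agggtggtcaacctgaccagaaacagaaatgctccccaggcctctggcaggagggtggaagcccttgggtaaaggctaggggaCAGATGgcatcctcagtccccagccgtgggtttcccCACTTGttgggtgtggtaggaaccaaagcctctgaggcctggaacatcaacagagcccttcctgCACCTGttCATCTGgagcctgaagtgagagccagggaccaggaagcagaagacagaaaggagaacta

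By role, lists differed in how many genes stood higher in members. Genes counted here were at least 2 times higher in members than in all other kept barcodes in both libraries, which was so for 5.84% of the 7976 genes tested (those with at least 20 UMIs over the members of both libraries). It held for 15 of 19 surface genes, among them Siglech and Bst2, which the rule fixed. It held for 20 of 24 genes known to be enriched in these cells, 7 of 16 transcription factors, 6 of 13 migration receptors and 5 of 20 genes of nucleic acid sensing. The count was 0 of 28 interferon-induced genes, 0 of 22 secretory pathway genes, 0 of 20 cell cycle genes and 0 of 18 immediate early and stress genes.

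Sensing genes included the RNA receptor Tlr7 at 57.0 CPM in CGG and 26.1 CPM in CGG-Cit (15.6 and 4.25 CPM in other barcodes) and Unc93b1, which carries such receptors to the endosome, at 452 and 376 CPM. The endosomal nuclease Pld4 stood at 401 and 306 CPM against 99.4 and 50.1 CPM. These 3 genes were among the 5 that stood at least 2 times higher. Of 20 interferon ligand genes measured, among them the Ifna genes and Ifnb1, members held 0 UMIs in both libraries, which allows up to 4.41% and 3.30% of members with a UMI, a limit on captured UMIs and not on cells that express the genes. Other kept barcodes held 905 and 538 UMIs of Ifng and 149 and 1 of Ifnb1. The type I receptor chains were present, with Ifnar1 at 143 and 82.3 CPM and Ifnar2 at 215 and 211 CPM. Irf7, the master regulator of type I interferon, stood at 159 and 74.4 CPM, below the 217 CPM of other barcodes in CGG and above their 53.0 CPM in CGG-Cit. No interferon transcript was therefore captured in members at this depth.

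Cytokine and receptor genes were few but distinct. Il12a, a subunit of interleukin-12 and interleukin-35, stood at 60.0 and 94.2 CPM against 7.12 and 30.2 CPM in other barcodes, and the chemokine gene Ccl4 at 1011 and 701 CPM against 397 and 157 CPM. Flt3 stood at 99.5 and 93.4 CPM against 4.78 and 4.28 CPM. Dntt, the template-free DNA polymerase of lymphoid progenitors, stood at 114 and 112 CPM against 14.1 and 32.9 CPM, while the B cell factor Ebf1 stood at 43.9 and 207 CPM, below the 324 and 681 CPM elsewhere. Members thus carried one mark of the lymphoid program above the rest and another below it.

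Members were 0.554% of kept barcodes in CGG (0.430 to 0.702) and 0.864% in CGG-Cit (0.696 to 1.06), a difference of 0.310 percentage points (0.0928 to 0.538) and a ratio of 1.56. With every barcode thinned to 2000 UMIs and the rule applied again, 30 and 42 members were left, 0.331% and 0.439%, a difference of 0.108 points; kept barcodes had median depths of 3921 and 6232 UMIs before thinning. The difference was -0.0475 points where members with markers of another lineage (at least 3 UMIs of at least 2 markers) were left out, which kept 7 and 1 members. Without mixed members the shares were 0.432% (53) and 0.636% (67), with a difference of 0.205 points (0.0155 to 0.403). Among barcodes with a UMI of Ptprc, the pan-leukocyte gene CD45, the shares were 0.849% (64 of 7542) and 1.155% (88 of 7620), and the interval of that difference, 0.306 points, reached below 0 (-0.0121 to 0.629). The makeup of the libraries differed at the same time: stromal cells were 1945 barcodes in CGG and 44 in CGG-Cit, and B lineage cells 832 and 3920. Whether the pDC share or the rest of the tissue moved cannot be told apart from shares.

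Between the libraries, how many identity genes of members differed depended on which members were compared. A gene was counted as different where its ratio of CPM, CGG-Cit over CGG, was at least 2-fold away from 1 with its counting interval on the same side, which was so upward for 6.83% and downward for 8.78% of the 7976 genes tested. Among unmixed members these shares were 5.79% and 4.62% of 5926 genes, and among unmixed members with a Ccr9 UMI and fewer than 3 UMIs of Mki67 and Top2a together (45 in CGG and 40 in CGG-Cit, called non-dividing Ccr9-positive below) 3.08% and 4.92% of 4252 genes. This last set was chosen after seeing the data. It takes captured Ccr9 and few UMIs of Mki67 and Top2a as signs of mature cells, and maturity was not measured otherwise. Members whose Ccr9 RNA was not captured were left out of it. Of 16 transcription factors tested, 0 were higher and 2 lower over all members (Irf7 and Creb3l2). Without mixed members none of 16 differed either way, nor did any of 15 in the non-dividing Ccr9-positive set. Of 19 surface genes 0 were higher and 5 lower over all members (Klra17, Cd209d, Lag3, Itgax and Ly6a), 4 were lower without mixed members (Ly6c2, Klra17, Cd209d and Itgax), and none differed either way in the non-dividing Ccr9-positive set. Of 24 genes enriched in these cells 1 was higher and 2 lower over all members, and 2 were higher (Hs3st1 and Smim5) and 1 lower (Klk1) in that set. List medians in the non-dividing Ccr9-positive set were -0.13 for transcription factors and 0.15 for surface genes on the log2 scale, beside 0.03 over all genes tested.

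**Figure D4:**
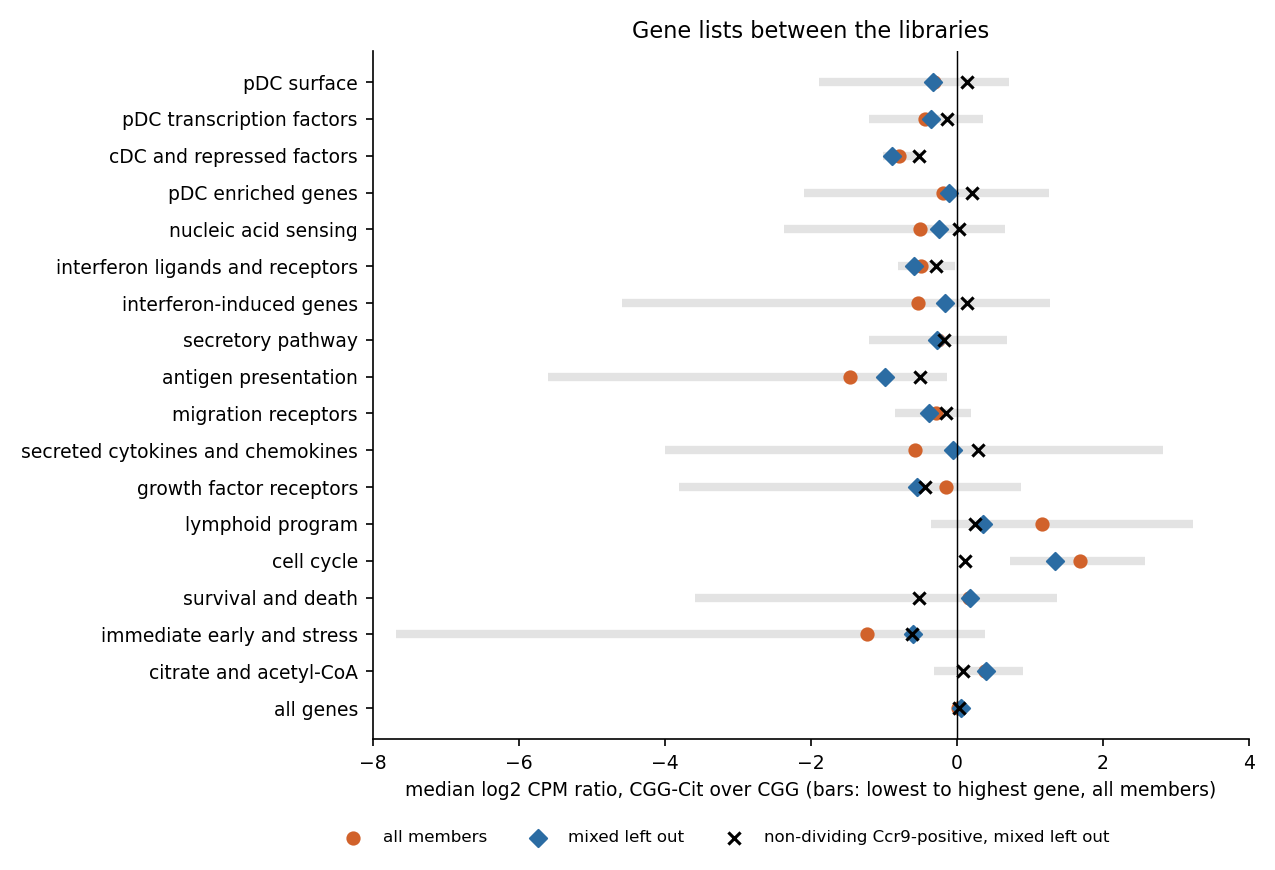
Median log2 ratio of CPM (CGG-Cit over CGG) of the 17 gene lists and of all genes, over all members (circles), without mixed members (diamonds) and in non-dividing Ccr9-positive members (crosses); grey bars run from the lowest to the highest gene of each list over all members. Cell cycle genes lie at 1.69 over all members and at 0.11 in the non-dividing Ccr9-positive set, and antigen presentation genes lie at -1.47 and -0.50. The non-dividing Ccr9-positive set was chosen by low Mki67 and Top2a, which belong to the cell cycle list.

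Klk1, a serine protease gene that is a mark of these cells in the mouse, was an identity gene that differed in all 3 sets. It stood at 203 CPM in CGG and 47.5 CPM in CGG-Cit, a ratio of 0.234 (0.170 to 0.318), and was seen in 26 of 68 members (38.2%) and 22 of 91 (24.2%). In non-dividing Ccr9-positive members it stood at 342 and 127 CPM, a ratio of 0.372 (0.249 to 0.544), with the highest member holding 16.7% and 29.7% of its UMIs. Its level was at most 0.407 CPM in the comparison classes, and the part of free RNA in its difference was not tested.

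Hs3st1, a heparan sulfate sulfotransferase, and Smim5, a small membrane protein, lay the other way. Hs3st1 stood at 27.8 and 68.1 CPM over all members, a ratio of 2.45 (1.48 to 4.26), and at 41.2 and 151 CPM in the non-dividing Ccr9-positive set, a ratio of 3.67 (1.94 to 7.43), where 8 of 45 and 25 of 40 members had a UMI. Smim5 had a ratio of 1.79 over all members and of 2.10 (1.55 to 2.88) in that set, where 27 of 45 and 37 of 40 members had a UMI. Irf8 was higher by a smaller ratio, 1.28 over all members and 1.62 (1.47 to 1.78) in that set, and so was Ly6d, at 1.64 and 1.59. The medians per member in that set were 16 and 26 UMIs of Irf8 and 14 and 27.5 UMIs of Ly6d, at median depths of 6397 and 6968.5 UMIs. Neither reached the 2-fold limit.

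Cd8b1, the beta chain of the T cell coreceptor CD8, stood at 130 CPM in CGG and 15.8 CPM in CGG-Cit, a ratio of 0.122 (0.0709 to 0.199). In the non-dividing Ccr9-positive set it was seen in 19 of 45 members and in 3 of 40, at 257 and 13.8 CPM, with 29.6% of the CGG UMIs in the highest member. The alpha chain Cd8a, which plasmacytoid dendritic cells can carry, stood at 76.1 and 86.0 CPM in that set, a ratio of 1.13. Cd3e was at 0 in all members, but 3 of the 4 T cell genes measured had UMIs in members of both libraries. Among unmixed Ccr9-positive members, T cell genes had 16 UMIs in 8 CGG cells and 15 UMIs in 10 CGG-Cit cells. No comparison class held more than 417 CPM of Cd8b1. Elmsan1, a deacetylase complex scaffold gene, was lower as well, at 108 and 24.5 CPM (ratio 0.227), and at 0.228 in that set. So was the pro-apoptotic gene Bcl2l11 (Bim), at 148 and 42.7 CPM (ratio 0.289, 0.204 to 0.407), and at 0.247 in that set, where 23 of 45 and 9 of 40 members had a UMI.

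Antigen presentation genes were lower in CGG-Cit members, 8 of 12 tested and 0 higher, with a median log2 ratio of -1.47 beside 0.02 for all genes. H2-Aa, an MHC class II chain, stood at 843 CPM in CGG and 265 CPM in CGG-Cit (ratio 0.315, 0.274 to 0.361), and Cd74, the invariant chain, at 1960 and 827 CPM (ratio 0.422). Without mixed members 5 of 10 genes tested were lower and 0 higher, with a median of -0.98. In the non-dividing Ccr9-positive set 1 of 8 was lower: H2-Eb1 stood at 764 and 285 CPM (ratio 0.374), while H2-Aa had a ratio of 0.512 and Cd74 of 0.721. For H2-Eb1, 28.6% of the CGG UMIs in that set lay in 1 member. Summed over all other kept barcodes, whose makeup differed between the libraries, these genes were also lower in CGG-Cit (list median -1.90).

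Immediate early and stress genes, which tissue digestion can induce, were lower in CGG-Cit members for 11 of 18 and higher for 0, with a median of -1.22. Without mixed members 5 of 17 were lower, with a median of -0.60. In the non-dividing Ccr9-positive set 6 of 16 were lower, with a median of -0.61. Nr4a1 stood at 457 and 92.9 CPM in that set and Atf3 at 193 and 10.3 CPM. Summed over all other kept barcodes, the list had a median of -0.98. The makeup of those barcodes differed between the libraries, and whether the list was lower within each cell class was not tested. Of 28 interferon-induced genes 1 was higher and 8 lower over all members, with a median of -0.54. Without mixed members 0 of 20 were higher and 1 lower, with a median of -0.15. In the non-dividing Ccr9-positive set 0 of 18 were higher and 1 lower, namely Ifitm3 at 504 and 117 CPM. There 76.5% of the CGG-Cit UMIs of Ifitm3 lay in 1 member. Of 16 genes of citrate and acetyl-CoA metabolism none was higher or lower over all members, with a median of 0.38, and 1 of 14 (Sucla2) was higher in the non-dividing Ccr9-positive set, with a median of 0.09.

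Some large differences belonged to 1 member or to mixed ones. Gzmc and Xcl1, genes of cytotoxic lymphocytes, had 229 and 101 UMIs in CGG-Cit members, of which 1 member held 228 and 99. That member also held 10 UMIs of the NK receptor gene Ncr1 and 23 of Id2, beside 16 of Siglech, 81 of Bst2 and 20 of Cox6a2. Id2, a repressor of Tcf4, had a ratio of 3.75 in the non-dividing Ccr9-positive set, and of 1.56 (0.669 to 3.75) without that member. Retnla had 97.2% of its CGG UMIs in 1 member. Ebf1 had a ratio of 4.73 over all members and of 0.658 without mixed ones, and Csf1r, the macrophage growth factor receptor, of 0.0704 and 0.470. The Csf1r interval without mixed members reached above 1 (0.187 to 1.14). The size of each of these differences thus depended on 1 member or on the mixed members.

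Dividing members, those with at least 3 UMIs of Mki67 and Top2a together, were 6 of 68 in CGG (8.82%, 3.31 to 18.2) and 28 of 91 in CGG-Cit (30.8%, 21.5 to 41.3), or 4 of 53 (7.55%, 2.09 to 18.2) and 15 of 67 (22.4%, 13.1 to 34.2) without mixed members. The intervals overlapped in the second case. Thinned to 2000 UMIs and counted from 1 UMI of either gene, the shares were 13.4% and 27.8%, or 5.77% and 22.7% without mixed members. Counted unthinned from 3 UMIs of both genes together, the share was 19.95% and 33.5% in the B lineage and 23.9% and 43.2% in monocytes. These classes thus also had a higher share in CGG-Cit. Median depths were 3323 and 3619.5 UMIs in the B lineage and 9104 and 10664 UMIs in monocytes, against 7449.5 and 8962 UMIs in members. Neutrophils had 18.9% and 20.5%, and T cells 12.5% and 9.33%. Conventional dendritic cells had 24.6% (17 of 69) and 22.2% (4 of 18), and stromal cells 6.38% (124 of 1945) and 2.27% (1 of 44). Of the cell cycle list, 18 of 20 genes tested were higher in CGG-Cit over all members and 17 of 20 without mixed ones. In the non-dividing Ccr9-positive set 0 of 6 were higher and 1 was lower. That set was chosen by low counts of Mki67 and Top2a, both on the list, so its counts follow in part from the choice.

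Dividing members held little RNA of the late genes of the lineage. Among unmixed members, H2-Aa stood at 19.8 CPM (1 UMI) in dividing and 1280 CPM in other CGG members, and at 13.8 CPM (3 UMIs) and 572 CPM in CGG-Cit. The ratios were 0.0155 (0.000391 to 0.0867) and 0.0242 (0.00495 to 0.0716). Cd74 had ratios of 0.0216 and 0.0285. Ccr9 had 0 UMIs in the 4 dividing CGG members against 783 CPM in the others, and stood at 36.9 against 531 CPM in CGG-Cit (ratio 0.0695). Klk1 was at 0 in dividing members of both libraries, against 310 and 94.9 CPM. Ctsl, a lysosomal protease, had ratios of 0.117 and 0.141, and Lair1 of 0.189 and 0.147.

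Over all members, mixed ones included, these ratios were in part nearer to 1. H2-Aa had ratios of 0.255 in CGG and 0.150 in CGG-Cit, Cd74 of 0.317 and 0.118, and Ccr9 of 0.0492 and 0.143. Ctsl had ratios of 0.174 and 0.176, and Lair1 of 0.231 and 0.235. All 5 genes were thus lower in dividing members with and without the mixed ones. Neutrophil markers summed to 79577 CPM in dividing and 20939.5 CPM in other CGG members, and to 57081 and 27922 CPM in CGG-Cit, and their part in the ratios over all members was not tested.

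Some genes of the lineage already on in progenitors, picked after their values were seen, had ratios nearer to 1 among unmixed members. Irf8 stood at 1882 CPM in dividing and 2281 CPM in other CGG members (ratio 0.825, 0.660 to 1.02), and at 2846 and 3307 CPM in CGG-Cit (ratio 0.860). Ly6d had ratios of 0.991 and 1.44, Runx2 of 0.687 and 0.698, and Tcf4 of 0.463 and 0.437. Other genes of the lineage or of lymphoid progenitors varied. Flt3 had ratios of 0.948 and 1.88, Bcl11a of 0.503 and 0.575, and Il7r of 0.416 and 0.653. Dntt had ratios of 0.138 (0.00343 to 0.805) and 0.689. Over all members the CGG ratios were similar, at 0.809 for Irf8, 0.854 for Ly6d, 0.642 for Runx2 and 0.441 for Tcf4. In CGG-Cit they were lower, at 0.452 for Irf8, 0.572 for Ly6d, 0.370 for Runx2 and 0.251 for Tcf4, so that Ly6d changed direction and Tcf4 stood near Lair1. Siglech itself, which the rule used, was lower among unmixed members, with ratios of 0.437 and 0.278, the CGG one near that of Tcf4. Bcl2, the anti-apoptotic gene, lay the other way, at 99.04 against 25.8 CPM in CGG (ratio 3.84, 1.01 to 12.7) and at 272 against 61.5 CPM in CGG-Cit (ratio 4.42, 2.71 to 7.43), with ratios of 5.91 and 2.40 over all members. Markers of the B lineage summed to 219 CPM in dividing and 105 CPM in other CGG members, and to 807 and 603 CPM in CGG-Cit. Among unmixed members, from which much B lineage RNA was removed by definition, they summed to 79.2 (4 UMIs) and 68.9 CPM, and to 73.8 and 177 CPM. Their part in the ratios was not tested.

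**Figure D5:**
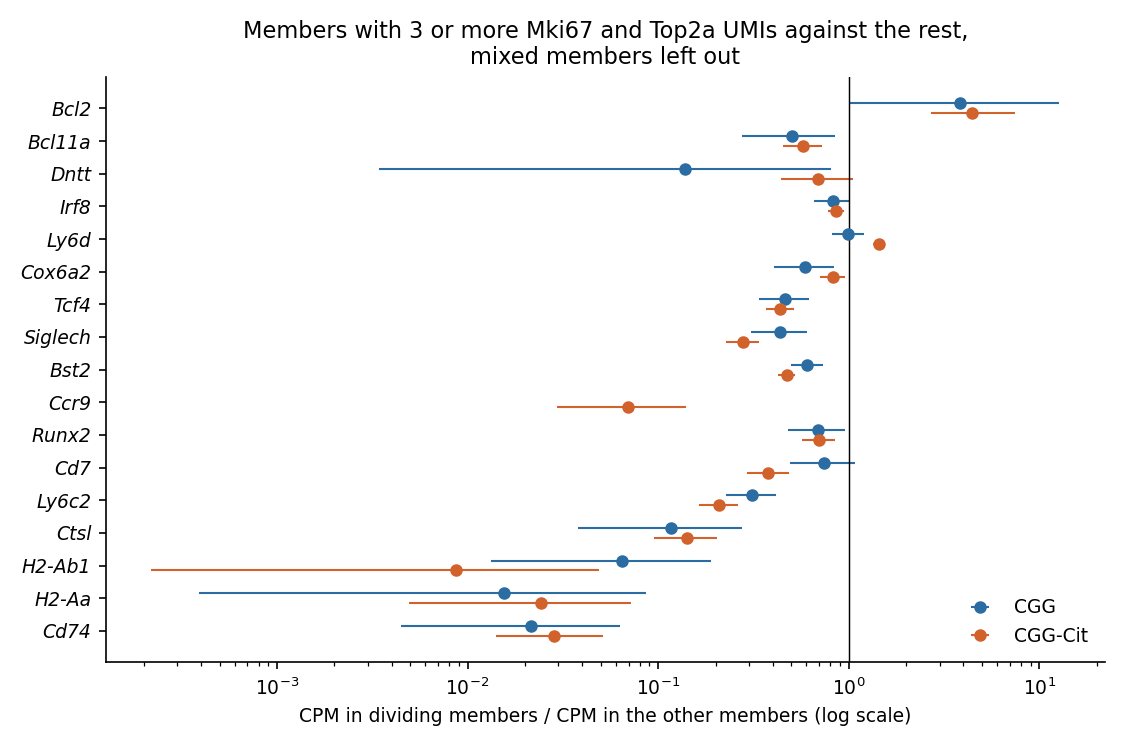
Ratio of CPM in dividing members to that in other members (log scale), for 17 genes in each library with mixed members left out; bars are 95% counting intervals, and the line marks equal levels. MHC class II genes, Ccr9 and Ctsl lie well below 1 and Bcl2 above it in both libraries; Ccr9 has no CGG point because dividing CGG members held 0 UMIs.

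Members without Ccr9 held more cell cycle RNA. Members without a Ccr9 UMI were 8 of 53 unmixed ones in CGG (15.1%, 6.75 to 27.6) and 24 of 67 in CGG-Cit (35.8%, 24.5 to 48.5). Their summed cell cycle list stood at 10841.6 and 11892.5 CPM, against 939 and 3038 CPM in Ccr9-positive unmixed ones, at median depths of 10504 and 10659.5 UMIs against 6397 and 7052 UMIs. Over all members the list stood at 5902 and 9355 CPM without Ccr9 and at 1333 and 6251 CPM with it. Ccr9 over all members had a ratio of 0.559 between the libraries (0.476 to 0.656), and of 0.823 (0.683 to 0.989) in the non-dividing Ccr9-positive set, a set that Ccr9 itself helped to define.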

How the data were processed

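The 2 deposited matrices, 1 per hydrogel, hold raw UMI counts of 27998 genes in every barcode. Per the file headers the authors made the counts with Cell Ranger 4.0.0, whereas the submitters' processing notes name Cell Ranger 3.0, with the mm10 build; the labels name kit v2 or v3 without saying which. The deposited counts carry no normalization. The libraries held 12527 and 10806 barcodes with 92517884 and 106173570 UMIs; members summed to 683620 (CGG) and 1263215 UMIs (CGG-Cit), with ranges of 1707 to 41389 and 1368 to 130624 UMIs per member, and the deepest member held 6.05% and 10.3% of these.

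Gene levels were computed as CPM, the summed UMIs of a gene per 1000000 UMIs of the same barcodes, with exact Poisson intervals. Shares have exact Clopper-Pearson intervals, differences of shares Newcombe intervals, and ratios exact conditional binomial intervals. List medians used log2 ratios with 0.5 UMI added. A count of 0 was read against a floor of 3 UMIs. Doublets were not removed in the main analysis. Scrublet's own threshold marked 1 barcode in CGG, under the minimum of 0.5%, so the highest 0.8% per 1000 barcodes was taken there; this removed 9 CGG members, and Scrublet marked 5 CGG-Cit members. The members, gene lists and tests were chosen with earlier results of these data known. Named genes were the markers, the 4 highest of each list, the 20 most confined genes, the 8 highest and 8 lowest between libraries, and genes that a result turned on, chosen after their values were seen. Alternatives covered the UMI limits, stricter filters, doublets, thinning, lineage markers, leaving out the deepest member, per-cell means and the subsets described, and median-of-ratios scaling and no filter on low values for gene lists. The scripts were tested on simulated counts. Software was Python 3.11.15 with numpy 2.4.6, scipy 1.17.1, pandas 2.3.3, scanpy 1.11.5 and matplotlib 3.10.9.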

Additional observations from a re-analysis of the deposited data

How the results depend on the processing

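No paired analysis was possible because each hydrogel had 1 library. The shares, their difference and the list medians were recomputed under the alternatives. Of these values, 175 stayed within the spread of the main value, 19 moved beyond it and 3 were counted as sign changes. A sign change was counted only where the whole spread of the main value had the same sign. Other list medians changed sign without being counted so. Requiring at least 5 UMIs of both genes gave a CGG share of 0.423%. Thinning to 2000 UMIs gave 0.331% and 0.439%, barcodes with Ptprc gave 0.849% and 1.155%, and leaving out mixed members gave 0.636% in CGG-Cit. Leaving out members with at least 3 UMIs of at least 2 markers of another lineage left 7 CGG and 1 CGG-Cit members (0.0570% and 0.00950%, a difference of -0.0475 points), so no gene levels were computed there.

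The non-dividing Ccr9-positive set was an alternative chosen after seeing the data. There list medians (log2) were 0.15 for surface genes and 0.0293 for sensing genes, both counted as sign changes. The median of interferon-induced genes also changed sign, from -0.54 over all members to 0.15. Medians were -0.50 for antigen presentation, 0.11 for cell cycle and -0.61 for immediate early genes. Within the main spread, 3 more lists changed sign. These were genes enriched in these cells (from -0.19 to 0.21), secreted cytokines and chemokines (from -0.57 to 0.29) and survival and death genes (from 0.17 to -0.51). Without mixed members list medians were -0.24 for sensing, 1.35 for cell cycle and -0.60 for immediate early genes. Limits of 5 UMIs gave 1.44 and removing Scrublet calls 1.41 for cell cycle, Scrublet -1.01 for factors of conventional dendritic cells, and per-cell means -0.26 for sensing. Sign changes of named genes were counted only for genes that differed over all members. Of these, Tlr7 (0.12), Top2a (-0.37), Ebf1 (-0.73) and Fabp4 (0.12) changed sign in the non-dividing Ccr9-positive set. Ebf1 also did so without mixed members (-0.60) and Fabp4 without the deepest member (0.77). Mki67 and Top2a, by which the non-dividing Ccr9-positive set was chosen, belong to the cell cycle list. The cause of the changes was not tested. Genes with under about 20 UMIs over both libraries were too shallow for a ratio.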
